A study of Mus musculus with 6 samples.

Results

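The endoplasmic reticulum (ER) folding machinery was followed as a set of 42 genes sorted into 5 arms. The genes were chosen by function, with earlier results of these data known. The arms were 15 chaperones and glycan-dependent folding factors, 7 disulfide isomerases and oxidases and 8 translocation components. The others were 7 components of ER-associated degradation (ERAD) and 5 sensors and factors of the unfolded protein response (UPR). All 42 genes were among the 15184 genes tested of 45706 genes in the table. RNA-seq had been done on LSK cells (Lin- Sca-1+ c-Kit+), the bone marrow fraction that holds hematopoietic stem cells and multipotent progenitors, with 1 library per mouse. The comparison of the 2 genotypes asked which arm was lower after deletion of Setd1b, an H3K4 methyltransferase. Ctrl mice (3) carried 1 conditional Setd1b allele that recombination turns into a frameshift allele (FD/+), and cKO mice (3) carried it on both chromosomes (FD/FD). Every mouse of either genotype also carried 1 copy of the tamoxifen-inducible Cre at Rosa26 (RC/+) and received tamoxifen by gavage at 4.5 mg per dose, and cells were taken 3 days after the last dose. All were males on a C57BL/6 background aged 16 weeks, except 1 cKO mouse of 17 weeks. The Rosa26 deleter acts in nearly all tissues, so cells around the LSK cells were recombined too, and recombined Ctrl cells retain 1 intact allele.

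Proteins bound for the cell surface, for secretion or for granules enter the ER through the Sec61 channel, are glycosylated and are then folded by BiP (Hspa5), by the lectin chaperones calnexin and calreticulin, and by disulfide isomerases. Chains that fail to fold are drawn back to the cytosol and degraded, which is ERAD. The sensors IRE1 (Ern1), ATF6 and PERK (Eif2ak3) read the load of unfolded protein, and their output, through XBP1, cleaved ATF6 and ATF4, raises transcription of chaperone and ERAD genes. Stem cells are known for low protein synthesis and for sensitivity to ER stress.

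Total counts per library lay between 13003573 and 21277519. The libraries' numbers, read from the table, fall into 2 runs of 3, here called library series 1 (Ctrl 1, cKO 1 and cKO 2) and library series 2 (Ctrl 2, Ctrl 3 and cKO 3); what separates the runs is not given in the sources used here. Setd1b itself (chr5:123142193-123168629, plus strand) stood at 221, 194 and 223 counts scaled to library size (CPM) in the Ctrl libraries and at 272, 288 and 314 CPM in the libraries labelled cKO (log2 difference 0.46, SE 0.07, adjusted p = 0.00146, edgeR). The gene total was thus higher, not lower, in the libraries labelled cKO; it is summed over all exons, does not measure the recombined exon and so does not check the labels. The groups are called Ctrl and labelled cKO below. Per-mouse values are always given in the order 1, 2, 3.

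Of the 15184 tested genes, 575 (3.79%) fell and 589 (3.88%) rose in the libraries labelled cKO. A gene was called where its adjusted p was below 0.05. With the trend against gene length removed, the split was 842 lower and 523 higher. Among the 4228 tested genes with a mean of at least 50 CPM, 281 (6.65%) were called lower. Of the 42 ER genes, 38 had a log2 fold change below 0. So did 7584 of the 15184 tested genes and 2449 of the 4228 with at least 50 CPM. Of the 42, 13 were called lower (30.95%) and 0 higher. All 13 were chaperones or disulfide isomerases: 9 of 15 in the first arm and 4 of 7 in the second. None of the 20 genes of the other arms was called, and DESeq2 called 2 of these 20 (Ssr1 and Derl1). By edgeR, 6 of the 20 had an unadjusted p below 0.05. The same held for 3470 of the 15184 tested genes and for 1315 of the 4228 with at least 50 CPM. In a bulk sample, fewer cells of a type and less RNA per cell cannot be told apart.

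**Figure D1:**
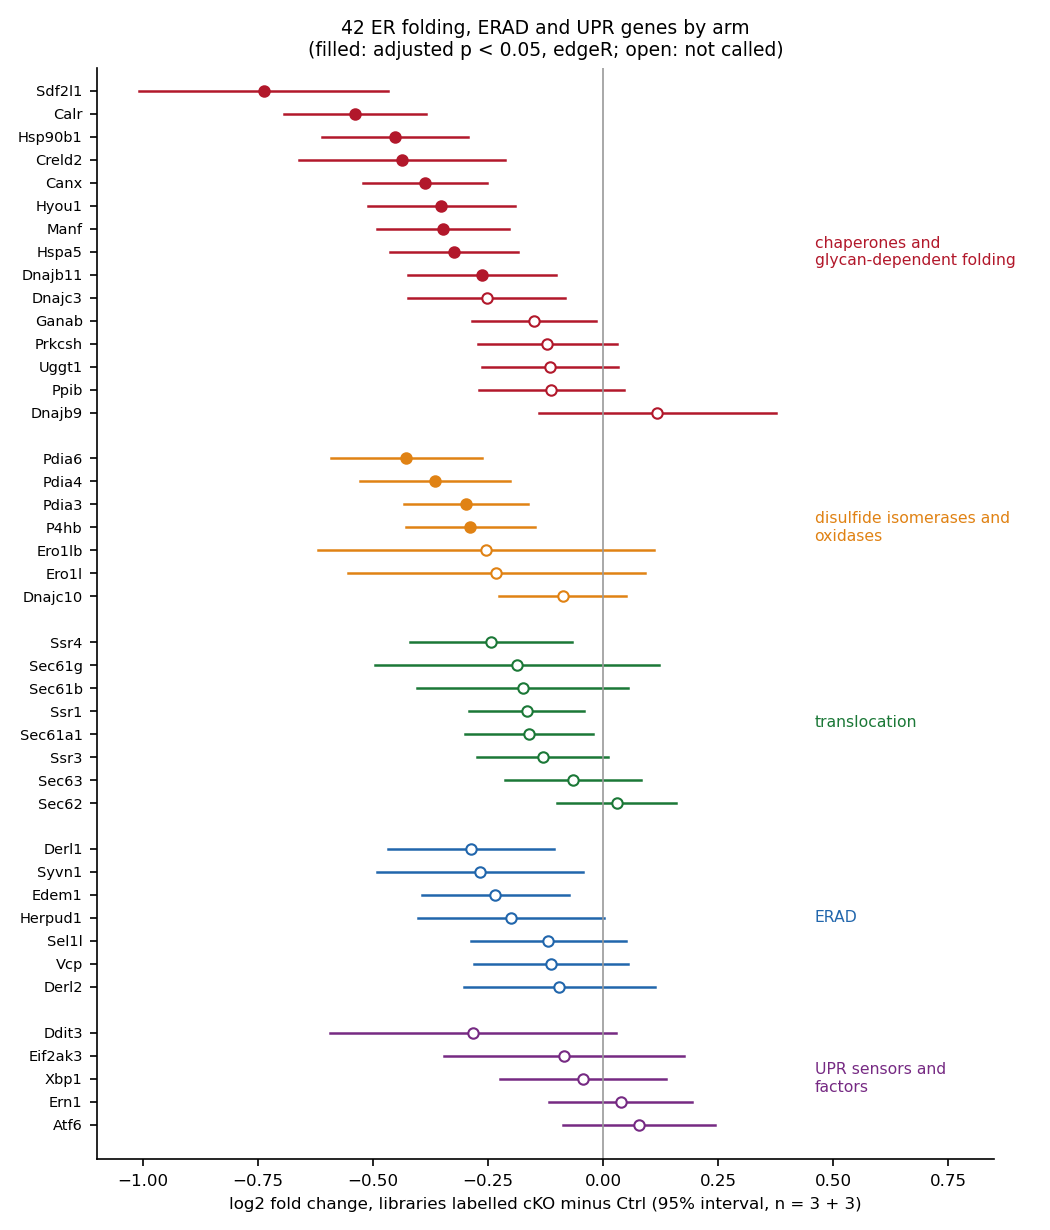
Log2 fold change of each of the 42 genes (x axis, libraries labelled cKO minus Ctrl; points with 95% intervals, 3 mice per group), sorted within the 5 arms. Filled points, called lower, are 9 chaperones and 4 disulfide isomerases, with Sdf2l1 at -0.74 and Calr at -0.54; open points, not called, include every gene of the other 3 arms, with the sensors Ern1 and Atf6 right of 0.

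In summed level, the 42 genes stood at 10139, 9586 and 10433 CPM in the Ctrl libraries, or 1.01%, 0.959% and 1.04% of all counts after scaling. They stood at 8232, 7779 and 8107 CPM in the libraries labelled cKO. The groups did not overlap, and the mean was 20.0% lower. Over the 42 genes the log2 fold change had a median of -0.22, beside 0.00023 over all tested genes and -0.03 over those with at least 50 CPM. Within library series 1 the median was -0.19 and within series 2 it was -0.20, and 32 of the 42 genes were lower in both. So were 4746 of the 15184 tested genes and 1758 of the 4228 with at least 50 CPM. In 22 of the 42 genes all 3 libraries labelled cKO lay below all 3 Ctrl libraries. The same held for 2030 (13.4%) of all tested genes and for 934 of the 4228 with at least 50 CPM. Without cKO 2 the number called was 6 (5 chaperones and 1 disulfide isomerase), while the genes called lower over all genes went from 575 to 308. The 7 genes that lost their call, among them Hspa5 at -0.31 and Pdia3 at -0.29, kept log2 fold changes between -0.35 and -0.26 in that fit. Without any other single mouse the number of members called was between 10 and 14.

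The ER stress element (ERSE), the sequence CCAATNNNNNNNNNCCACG read on either strand, is the textbook site through which NF-Y with ATF6 or XBP1 drives chaperone genes; the second form, ERSE-II, is ATTGGNCCACG. They are shown here with counts by arm, and whether the arms differ was not tested. Windows from 250 bases before to 50 bases after each RefSeq transcript start (GRCm38.p6) were searched, and 37 of the 42 genes had a window; Hyou1, Manf, Sec61a1, Derl1 and Atf6 had none. An ERSE or ERSE-II was found in 11 of the 37 genes. It was found in 0.181% of all 27025 genes and in 0.155% of all 32851 windows (0.119% for ERSE, 0.0365% for ERSE-II). It was present in 7 of 13 chaperones, 2 of 7 disulfide isomerases and oxidases, 0 of 7 translocation genes, 2 of 6 ERAD genes and 0 of 4 UPR sensors and factors. The core of the UPR element, TGACGTGG on either strand, was found in 1 (Vcp), against 0.676% of windows and 0.714% of genes. No matches to these motifs overlapped each other in these windows. The sequences below run 5′ to 3′ on the strand of the gene, and the capitals mark the ends of an element: CCAAT and CCACG for an ERSE on the strand shown, CGTGG and ATTGG for an ERSE on the other strand, and ATTGG and CCACG for the ERSE-II of Herpud1, which lies on the strand shown.

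Calr, chr8:84847063-84847105, minus strand: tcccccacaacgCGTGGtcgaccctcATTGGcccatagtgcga
Canx, chr11:50325788-50325830, minus strand: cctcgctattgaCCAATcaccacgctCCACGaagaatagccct
Hspa5, chr2:34772013-34772055, plus strand: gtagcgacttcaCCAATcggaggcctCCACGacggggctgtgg
Hsp90b1, chr10:86705521-86705668, minus strand: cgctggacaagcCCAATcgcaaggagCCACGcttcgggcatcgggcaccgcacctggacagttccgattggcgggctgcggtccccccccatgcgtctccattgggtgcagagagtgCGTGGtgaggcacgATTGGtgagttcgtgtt
Dnajc3, chr14:118937815-118937857, plus strand: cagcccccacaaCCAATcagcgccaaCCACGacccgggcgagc
Creld2, chr15:88819508-88819550, plus strand: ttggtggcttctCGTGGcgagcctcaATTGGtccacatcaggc
Pdia6, chr12:17266479-17266521, plus strand: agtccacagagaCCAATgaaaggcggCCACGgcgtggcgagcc
Ero1lb, chr13:12565670-12565712, plus strand: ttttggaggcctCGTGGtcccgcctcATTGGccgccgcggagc
Herpud1, chr8:94386365-94386399, plus strand: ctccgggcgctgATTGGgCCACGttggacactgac
Syvn1, chr19:6046520-6046562, plus strand: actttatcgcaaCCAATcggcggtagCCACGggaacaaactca

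The elements began between 44 bases (Syvn1) and 212 bases (Hsp90b1) before the start; Hsp90b1 alone among the 37 held more than 1, on opposite strands, and the ERSE-II of Dnajb11 lay past the start. Of the 11 called genes with a window, 7 held an element, and of the 26 genes not called, 4 did (Dnajc3, Ero1lb, Herpud1 and Syvn1). These 4 had log2 fold changes between -0.27 and -0.20. Calls and elements were both unevenly spread over the arms. The chaperones had 7 of 13 genes with an element, the translocation genes 0 of 7 and the UPR genes 0 of 4. Whether a call goes with an element apart from the arm was not tested. A match is a description of the letters in a window and was not measured as a bound site.

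In the chaperone arm the lectin chaperones calreticulin and calnexin fell, as did BiP. Calr (chr8:84841850-84846934), the soluble lectin chaperone and calcium store of the ER, stood at 2232, 2159 and 2513 CPM in Ctrl and at 1662, 1464 and 1625 CPM in the libraries labelled cKO. Its mean was 31.2% lower (log2 fold change -0.54, SE 0.07, adjusted p = 0.000335, edgeR), and it was the ER gene with the smallest p. Canx (chr11:50293961-50325673), its membrane-bound partner, went from 988, 942 and 1055 CPM to 786, 735 and 761 CPM (log2 fold change -0.39, SE 0.06, adjusted p = 0.00158). Hsp90b1 (chr10:86690209-86705509), the ER-resident HSP90 family member with a narrow set of clients such as integrins and Toll-like receptors, went from 966, 807 and 926 CPM to 708, 626 and 639 CPM (log2 fold change -0.45, SE 0.07, adjusted p = 0.0017). Of its exon bases 5.38% are shared with Gm15344 and Gm25745 on the same strand, whose reads cannot be told apart. In each of these genes the highest library labelled cKO lay below the lowest Ctrl library.

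Hspa5 (chr2:34771970-34777547), which encodes BiP, the central ER chaperone and the protein that holds the UPR sensors inactive, stood at 721, 630 and 661 CPM in Ctrl and at 523, 527 and 558 CPM in the libraries labelled cKO. The groups did not overlap, and the log2 fold change was -0.32 (SE 0.07, adjusted p = 0.00639). The log2 difference was -0.46 within library series 1 and -0.21 within series 2, and the call was lost without cKO 2. Hyou1, the nucleotide exchange factor of BiP, fell from 221 ± 11.3 to 173 ± 16.5 CPM (mean ± SD, n = 3), and Dnajb11, a J-domain cofactor, fell from 78.3 ± 3.67 to 65.2 ± 3.72 CPM with an adjusted p of 0.0463, close to the threshold. The call of Hyou1 was lost without cKO 2, and that of Dnajb11 without any mouse but Ctrl 2. Dnajc3, another J-domain cofactor, was at 113 ± 11.8 and 94.9 ± 4.66 CPM without overlap between groups and was not called (adjusted p = 0.0692). It was called in 4 of 15 alternatives, namely with no count filter, with the length trend removed, with library series as a covariate and without Ctrl 2.

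The steepest fall of all 42 genes was that of Sdf2l1 (chr16:17130138-17132383), a small ER protein that works with Dnajb11 and BiP. It stood at 44.6, 46.8 and 46.8 CPM in Ctrl and at 29.95, 21.03 and 32.1 CPM in the libraries labelled cKO, so the Ctrl mice were alike and cKO 2 was the lowest. Its mean was 39.9% lower (log2 fold change -0.74, SE 0.13, adjusted p = 0.00221, edgeR), and its 95% interval ran from a fall of 27.7% to one of 50.3%. Manf and Creld2, ER stress-inducible luminal proteins, fell by 21.4% (adjusted p = 0.0049) and by 26.3% (adjusted p = 0.0192). The call of Creld2 was lost without Ctrl 1, Ctrl 3 or cKO 2. Manf was close in the Ctrl mice, at 109, 111 and 112 CPM, and at 86.4, 82.5 and 91.5 CPM in the libraries labelled cKO.

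The other members of the arm were not called. Ppib, a prolyl isomerase, Uggt1, which re-glucosylates misfolded glycoproteins, and the glucosidase II subunits Prkcsh and Ganab had log2 fold changes between -0.15 and -0.11 and adjusted p-values between 0.166 and 0.399. For Ppib the interval allows a fall of at most 17.1%, and Calr's interval begins at a fall of 23.4%. Dnajb9, a J-domain cofactor, was the only chaperone with a log2 fold change above 0. Its values were 22.7, 23.8 and 20.7 CPM in Ctrl and 20.6, 26.3 and 26.1 CPM in the libraries labelled cKO. The groups overlapped (log2 fold change 0.12, SE 0.12, adjusted p = 0.62), and the interval allows a fall of at most 9.24%.

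**Figure D2:**
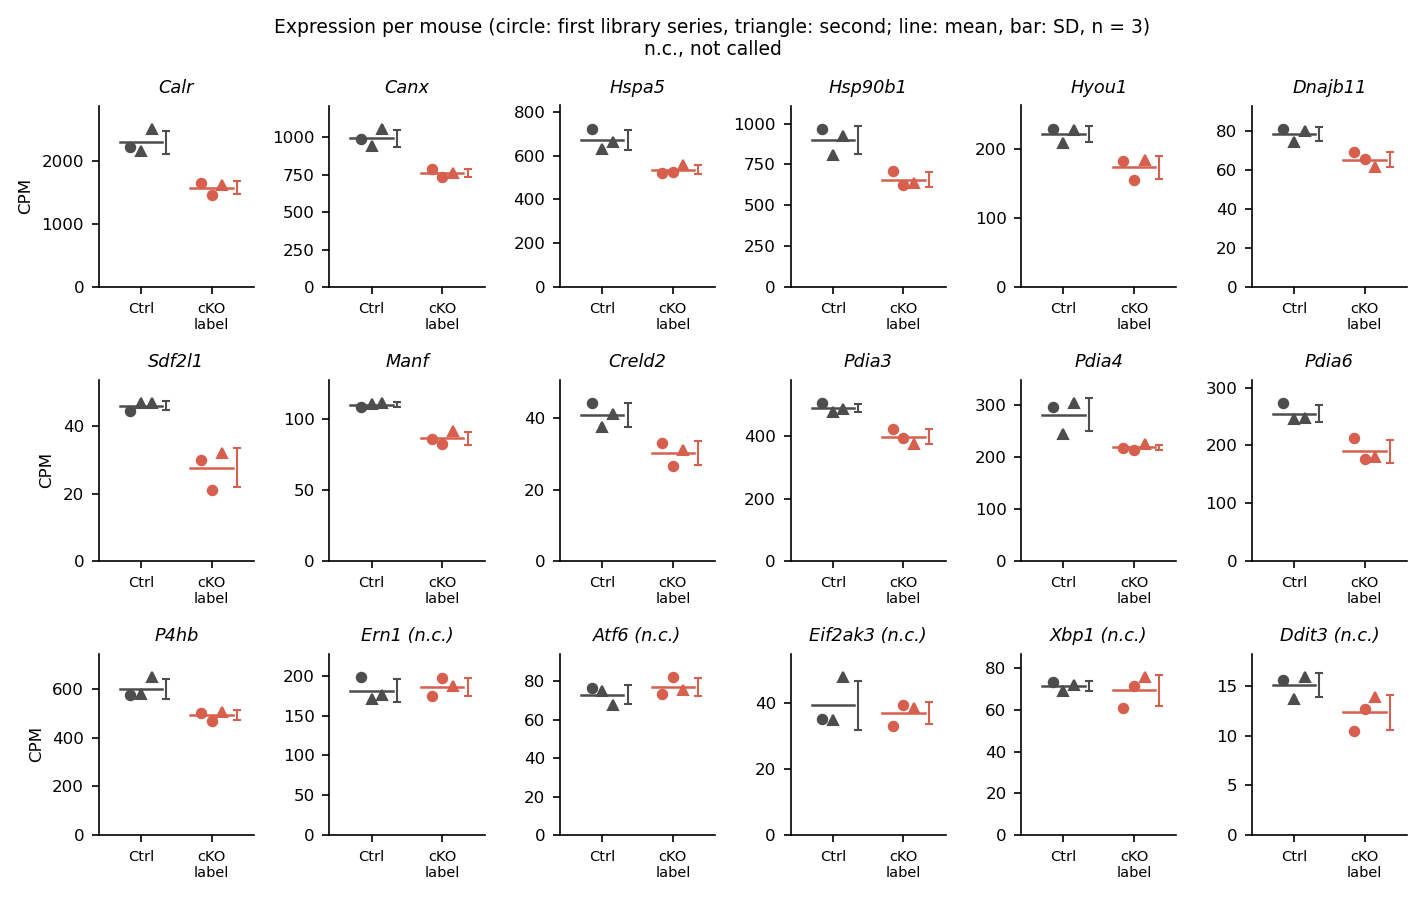
CPM per mouse (y axes from 0) of the 13 genes called lower and of the 5 UPR sensors and factors, in Ctrl and in libraries labelled cKO; circles are library series 1, triangles library series 2, lines means and bars SD (n = 3). In each of the 13 called genes every library labelled cKO lies below every Ctrl library, and in each of the 5 UPR genes (n.c.) the groups overlap.

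The disulfide isomerases fell together, and the oxidases that recharge them were not called. Pdia6 (chr12:17266545-17284770), an isomerase that also attenuates IRE1 signalling, stood at 273, 246 and 247 CPM in Ctrl and at 212, 177 and 180 CPM in the libraries labelled cKO (log2 fold change -0.43, SE 0.08, adjusted p = 0.00311, edgeR). Pdia4 (chr6:47796141-47813430) went from 296, 245 and 303 CPM to 217, 213 and 224 CPM (log2 fold change -0.37, SE 0.08, adjusted p = 0.00837). Pdia3 (chr2:121413775-121438687), which folds glycoproteins handed over by calnexin and calreticulin, went from 505, 478 and 486 CPM to 424, 395 and 375 CPM (log2 fold change -0.30, SE 0.06, adjusted p = 0.00873). P4hb, the archetypal protein disulfide isomerase, fell from 602 ± 41.1 to 493 ± 20.2 CPM (adjusted p = 0.0137). Groups did not overlap in any of the 4 isomerases, but of these only Pdia6 was still called without cKO 2, and P4hb was not called without Ctrl 3 either. The oxidases Ero1l (32.3 ± 2.14 and 27.5 ± 7.84 CPM) and Ero1lb (11.6 ± 2.07 and 9.74 ± 1.09 CPM) overlapped between groups, with log2 fold changes of -0.23 (SE 0.15) and -0.25 (SE 0.17). Their standard errors were larger than those of the isomerases (0.06 to 0.08), and Ero1l was called without cKO 1, whose value of 36.5 CPM lay above every Ctrl library. Dnajc10, a reductase that serves ERAD, stood at 117 ± 2.23 and 110 ± 5.10 CPM (adjusted p = 0.466).

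Of the translocation arm, 0 of 8 genes were called. Sec61a1, the pore subunit, stood at 169, 170 and 164 CPM in Ctrl and at 139, 156 and 155 CPM in the libraries labelled cKO, which did not overlap (log2 fold change -0.16, SE 0.07, adjusted p = 0.151). The translocon-associated subunits Ssr1 (299, 297 and 307 against 277, 261 and 267 CPM, adjusted p = 0.102) and Ssr4 (75.3, 93.4 and 84.7 against 72.3, 73.6 and 68.4 CPM, adjusted p = 0.0909) did not overlap either; Ssr4 was called without Ctrl 1 and with no count filter, and Ssr1 with DESeq2 and with the length trend removed. Sec61b, Sec61g, Ssr3 and Sec63 had log2 fold changes between -0.19 and -0.07. Sec62, which takes part in post-translational import, was level at 149 ± 3.95 and 152 ± 2.32 CPM (log2 fold change 0.03, SE 0.06), and its interval allows a fall of at most 6.71%. With the trend against gene length removed, its log2 fold change was -0.01. The summed level of the arm was 1089 ± 7.94 CPM in Ctrl and 998 ± 17.2 CPM in the libraries labelled cKO, 8.36% lower and without overlap.

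ERAD also had 0 of 7 genes called, with all 7 log2 fold changes below 0. Derl1, a channel-forming derlin, came closest. It stood at 51.4, 52.5 and 58.4 CPM in Ctrl and at 44.4, 46.2 and 42.4 CPM in the libraries labelled cKO (log2 fold change -0.29, SE 0.08, adjusted p = 0.0506, edgeR), and it was called in 7 of 15 alternatives, DESeq2 among them. Edem1, which draws mannose-trimmed glycoproteins into degradation, was at 68.0, 71.2 and 64.3 against 57.0, 57.9 and 58.2 CPM, also without overlap (log2 fold change -0.23, SE 0.07, adjusted p = 0.0717). Syvn1, the ubiquitin ligase of the pathway, overlapped between groups, at 42.5, 45.7 and 54.2 against 35.6, 39.4 and 43.3 CPM (log2 fold change -0.27, SE 0.11, adjusted p = 0.141). Herpud1, a ligase cofactor and one of the most stress-responsive ERAD genes, was at 60.5 ± 3.64 and 52.7 ± 6.78 CPM; its log2 difference was -0.40 within library series 1 and 0.05 within series 2. Sel1l, Derl2 and the ATPase Vcp lay between -0.12 and -0.09 in log2 fold change. The summed level of the arm was 11.2% lower, at 505 ± 4.12 and 449 ± 10.6 CPM.

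None of the UPR sensors and factors was called, none had an unadjusted p below 0.05, and the groups overlapped in all 5. Ern1, encoding IRE1, stood at 198, 171 and 176 CPM in Ctrl and at 175, 197 and 187 CPM in the libraries labelled cKO (log2 fold change 0.04, SE 0.07, adjusted p = 0.806). Atf6 stood at 76.4, 75.1 and 67.4 CPM against 73.6, 82.1 and 75.4 CPM (log2 fold change 0.08, SE 0.08, adjusted p = 0.604). The intervals allow a fall of at most 7.76% for Ern1 and 5.84% for Atf6, both smaller than the 11.98% at which the interval of Hspa5 begins. These are RNA levels, and the activity of the sensors was not measured. Eif2ak3, encoding PERK, stood at 35.3, 34.7 and 47.8 against 33.0, 39.3 and 38.6 CPM (log2 fold change -0.09, SE 0.12, adjusted p = 0.737).

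Xbp1, measured as total transcript without regard to splicing by IRE1, stood at 73.5, 68.9 and 71.8 CPM in Ctrl and at 60.9, 71.3 and 75.6 CPM in the libraries labelled cKO (log2 fold change -0.04, SE 0.08, adjusted p = 0.815). Ddit3, the pro-apoptotic factor CHOP induced through PERK and ATF4, stood at 15.7, 13.7 and 15.9 against 10.5, 12.8 and 14.0 CPM (log2 fold change -0.28, SE 0.15, adjusted p = 0.265). Its interval ran from a fall of 33.8% to a rise of 1.89%. The summed level of the 5 genes was 380 ± 18.0 CPM in Ctrl and 382 ± 25.98 CPM in the libraries labelled cKO.

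The arms can also be set side by side within each mouse, as the mean deviation of log2 CPM from the 6-library mean. For the chaperones this was 0.17, 0.09 and 0.19 in Ctrl and -0.13, -0.21 and -0.11 in the libraries labelled cKO. For the disulfide isomerases and oxidases it was 0.20, 0.11 and 0.11 against -0.03, -0.22 and -0.17. Translocation (0.04, 0.11 and 0.06 against -0.04, -0.06 and -0.11) and ERAD (0.07, 0.10 and 0.10 against -0.11, -0.12 and -0.05) also separated the groups, by a smaller distance. The UPR sensors and factors did not, at 0.06, -0.05 and 0.08 against -0.17, 0.04 and 0.04.

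The excess of the chaperones over the UPR arm within a mouse was 0.11, 0.14 and 0.11 in Ctrl and 0.04, -0.25 and -0.15 in the libraries labelled cKO, without overlap. Over ERAD it was 0.10, -0.01 and 0.09 against -0.02, -0.09 and -0.06, again without overlap, though Ctrl 2 and cKO 1 were 0.01 apart. Over translocation it was 0.13, -0.02 and 0.13 against -0.10, -0.15 and -0.0024, so that cKO 3 lay above Ctrl 2 and the groups overlapped. Over the disulfide arm the groups were interleaved. A larger fall of the chaperones than of the translocation genes is therefore not separated from the spread between mice, although 9 genes of one arm and 0 of the other were called.

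**Figure D3:**
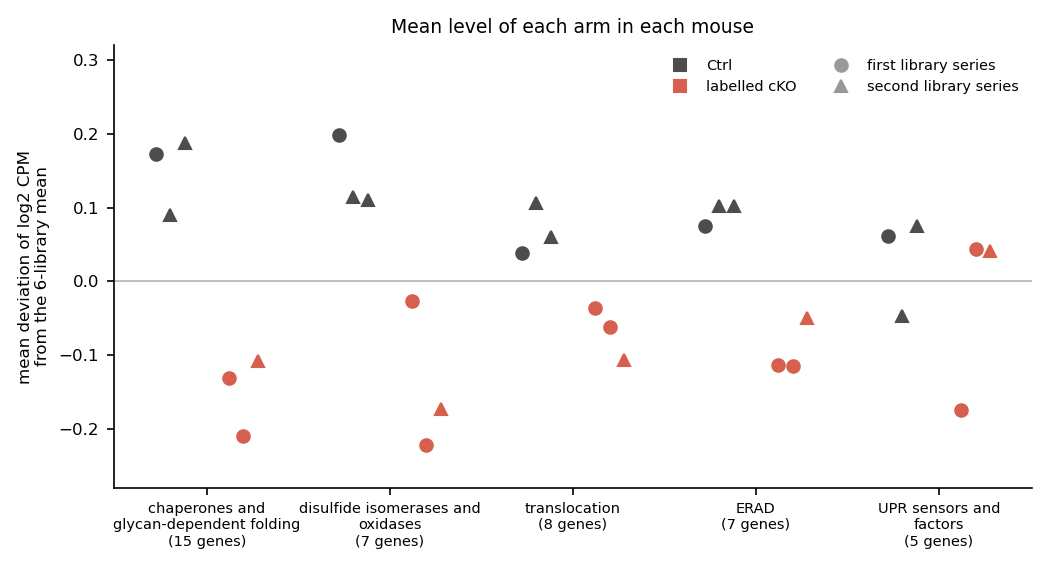
Mean deviation of log2 CPM from the 6-library mean (y axis) for each arm in each mouse; grey, Ctrl; red, labelled cKO; circles, library series 1; triangles, series 2. The groups are apart in the first 4 arms, widest in the chaperones (0.09 to 0.19 against -0.21 to -0.11), and overlap in the UPR arm.

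Arms differed in level as well as in change. The median of mean CPM was 153 for the chaperones, 222 for the disulfide arm, 130 for translocation, 56.6 for ERAD and 70.3 for the UPR arm. Per length of summed exons, Calr was the most abundant transcript of the 42 in Ctrl, at 799 ± 64.8 RPKM, which is CPM divided by exon length in kilobases. The next in order of RPKM were Hsp90b1 at 223, Ppib at 215, Canx at 212 and P4hb at 210, neighbours that differ by less than their spread, and then Hspa5 at 159 and Pdia3 at 156. At the low end in RPKM stood Sec61g at 5.75, Derl2 at 4.06 and Ero1lb at 2.74. Of the genes from Calr to Pdia3 in this order only Ppib was not called. Sdf2l1, Creld2 and Manf fell from 41.6, 30.01 and 31.3 RPKM, while Sec62 and Ssr3, at 34.4 and 51.7 RPKM in Ctrl, were not called.

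**Figure D4:**
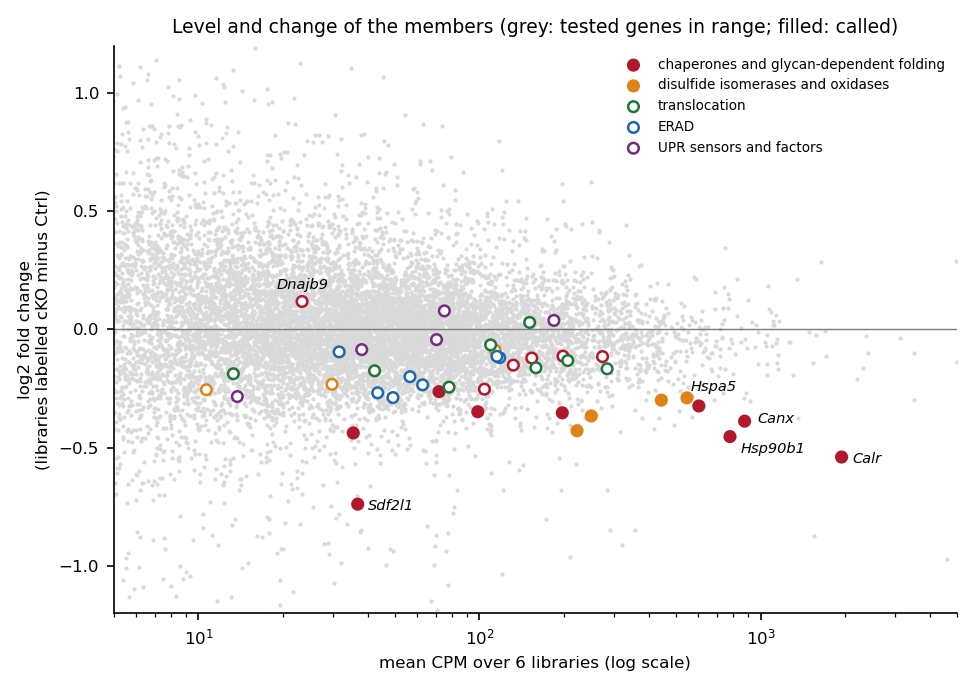
Log2 fold change (y axis, libraries labelled cKO minus Ctrl) against mean CPM over 6 libraries (x axis, log scale) for the 42 genes, coloured by arm and filled where called, over the tested genes in range (grey). The most abundant ER genes, Calr, Canx, Hsp90b1 and Hspa5, are all called lower, and Sdf2l1 is the most strongly lowered at a mean level below 50 CPM.

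Further lists, also drawn up with earlier results of these data known, placed these arms within the secretory route. The oligosaccharyltransferase, which glycosylates chains as they enter the ER, had 6 of 12 subunits called lower, with a median log2 fold change of -0.28. Its leading genes by p were Magt1 (122 ± 3.54 to 97.4 ± 1.43 CPM, adjusted p = 0.00458), the catalytic subunit Stt3a (269 ± 20.9 to 207 ± 14.4 CPM, adjusted p = 0.00503) and Rpn1 (479 ± 68.0 to 358 ± 18.9 CPM, adjusted p = 0.00656). The genotypes did not overlap in any of the 3. The share called, 50%, stood beside 60% of the chaperones and the 57.1% of the disulfide arm.

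The rest of the early secretory route had smaller shares. Of 33 further ER folding factors tested, 3 were called lower, led by Mogs, the glucosidase that trims the first glucose (log2 fold change -0.42, adjusted p = 0.00209), and by Fkbp11 (-0.70, adjusted p = 0.0429) and Fkbp2 (-0.38, adjusted p = 0.0462). Signal recognition particle, signal peptidase and further translocon genes had 3 of 30 called lower: Spcs3, Spcs2 and Srp72, between -0.34 and -0.24. The COPII coat and cargo receptors had 3 of 29, led by the glycoprotein receptor Lman1 (-0.36, adjusted p = 0.00425), with Surf4 and Tmed3. Further ERAD components had 1 of 32, a share of 3.13% beside the background of 3.79%. The medians of these lists lay between -0.14 and -0.02.

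In each list around the UPR sensors, at most 1 gene was called in either direction. Over all tested genes 3.79% were lower and 3.88% higher. Of 17 tested genes of ATF6 processing, IRE1 partners and related ER factors, 0 were called lower and 1 was called higher: Crebrf, a regulator of CREB3, from 45.7 ± 5.84 to 59.3 ± 4.50 CPM (log2 fold change 0.38, SE 0.10, adjusted p = 0.0297). At an unadjusted p below 0.05 (edgeR) there were 4 of the 17, beside 3470 of all 15184 tested genes. Of 14 tested genes of the PERK and ATF4 branch, 1 was called lower (7.14%) and 1 higher, and 6 had an unadjusted p below 0.05. Ppp1r15a, the phosphatase subunit that ends the PERK signal, rose from 38.8 ± 4.34 to 51.1 ± 5.83 CPM (log2 fold change 0.40, SE 0.11, adjusted p = 0.0307, edgeR). Eif2s1, the substrate of PERK, fell from 102 ± 1.53 to 83.3 ± 9.33 CPM (adjusted p = 0.043). Trib3 was low, at 0.669 and 1.89 CPM, and was not called (adjusted p = 0.0572).

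Chaperones outside the ER were also followed. In the cytosol 4 of 34 were called lower, among them Cct7 (-0.28, adjusted p = 0.0109), the testis-enriched Hspa2 (-0.64, adjusted p = 0.0117) and Hsp90aa1 (-0.27, adjusted p = 0.0174), with a list median of -0.14. In the mitochondrial list 3 of 14 were called lower by edgeR, with a list median of -0.18. They were the protease Htra2 (-0.52, adjusted p = 0.00695) and the chaperones Hspa9 (-0.28, adjusted p = 0.00799) and Hspd1 (-0.32, adjusted p = 0.0411). The shares called lower were 11.8% and 21.4%, beside 3.79% of all tested genes and 6.65% of those with at least 50 CPM, and whether they exceed these was not tested.

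**Figure D5:**
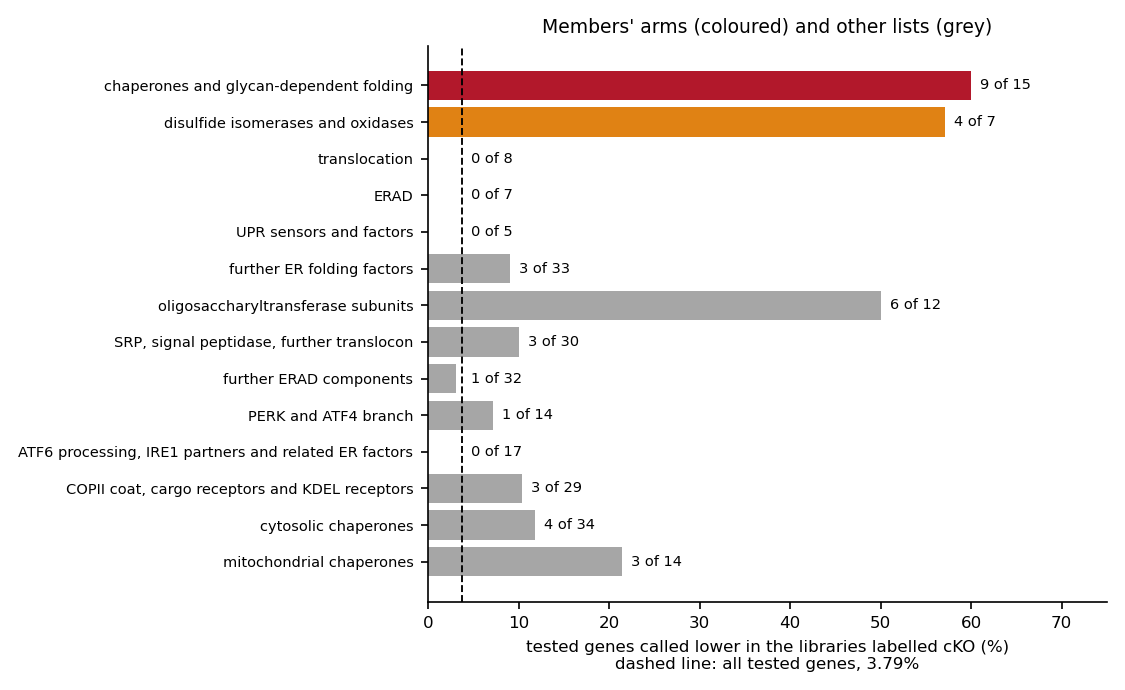
Percent of tested genes called lower in the libraries labelled cKO (x axis, bars from 0, counts at the right) for the 5 arms (coloured) and 9 further lists (grey); the dashed line is the 3.79% of all tested genes. The chaperone, disulfide isomerase and oligosaccharyltransferase lists stand at 50% or more and every other list is at 21.4% or less.

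Markers of several other cell types moved with the genotype too. The counts called below stand beside 3.79% lower and 3.88% higher over all tested genes. The summed level of 13 granulocyte and monocyte progenitor markers was 3218 to 3834 CPM in Ctrl and 708 to 1053 CPM in the libraries labelled cKO, with 10 of 13 tested called lower and none at 0; Mpo, the granule peroxidase, which is folded and glycosylated in the ER, went from 2668 ± 330 to 360 ± 97.5 CPM. Erythroid markers were at 540 to 603 and 310 to 371 CPM (8 of 10 tested lower), and mast cell and basophil markers at 254 to 315 and 192 to 246 CPM (5 of 9 tested lower). The mast cell and basophil sum rests mostly on 1 gene, at a mean of 184 CPM beside a list median of 5.62 CPM. The median log2 fold change of that list was -1.44. Gata2 is in both that list and the LSK list. Antibody-secreting cell markers were at 290 to 650 and 133 to 220 CPM (3 of 7 tested lower), with Tnfrsf17 and Ighg2c at 3 counts or fewer in every library. B lymphoid markers were at 29.4 to 44.4 and 35.2 to 44.0 CPM (1 of 6 tested lower), with Vpreb3 at 0 in every library. T and NK markers were at 64.7 to 78 and 51.6 to 56.1 CPM (1 of 4 tested lower), with Cd3d, Cd3e, Cd8a and Trac at 3 counts or fewer. Of the 4 T and NK markers tested, 3 were higher in both library series, and the median log2 fold change of the 4 was 0.43. The summed level of 14 LSK markers was 3174 to 3405 and 3207 to 3254 CPM, with 3 called higher and 0 lower. Whether these marker shifts come from cell content or from RNA per cell was not tested. Their part in the fall of the ER genes was not tested either.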

How the data were processed

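RNA-seq libraries were made from LSK cells of 3 Ctrl and 3 cKO mice. The authors aligned reads to GRCm38 with GSNAP and counted them per Ensembl 81 gene with featureCounts 1.5.0 on the strand of the gene; the deposited values are raw read counts, not normalized, with summed exon length per gene. Total counts per library were 13003573 to 21277519. Groups were taken from the sample labels.

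Symbols came from GENCODE M21 by gene identifier (98.8% named). Counts were tested with edgeR 4.0.16 (R 4.3.3; TMM, filterByExpr, quasi-likelihood test, genotype only, all 6 libraries), adjusted by Benjamini-Hochberg over all 15184 tested genes, threshold 0.05. CPM used TMM factors, log2 CPM a prior count of 2, and RPKM the deposited exon length. The fit was tested on simulated data with changes put into randomly drawn tested genes. Of genes changed by 0.3 in log2 it called 7 of 49, and of those changed by 0.5 it called 21 of 48. Of those changed by 1 or 2 it called 38 of 50 and 49 of 50. A gene not called is therefore not shown to be unchanged. The median level was 19.7 CPM over all tested genes and 112 CPM over the 42 members. Recovery at the members' level was not simulated separately. Alternatives were DESeq2 1.42.0 and its size factors, other count filters, removal of abundant and organelle genes, loess removal of length or GC trends (span 0.3), library series as covariate, a threshold of 0.01, other assignments to arms, and leaving out each mouse.

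Every member could be named, with full values for the 3 of each arm with the smallest p and for every UPR gene; of each further list the 3 genes with the smallest p, and Setd1b. Other named genes were chosen after their values were seen. Some items are not reported here. Members and lists were chosen with earlier results of these data known. With 3 mice against 3, an exact permutation test of a single value cannot go below 0.1, so none was given. Promoter windows were RefSeq GRCm38.p6. Reads from overlapping genes on the same strand cannot be told apart; of the 42 members this touches Hsp90b1 (5.38% of exon bases), Pdia4 (0.565%) and Manf (0.397%).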

Additional observations from a re-analysis of the deposited data

How the results depend on the processing

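In all 15 alternative fits with a test no member was called higher. Calr, Canx, Hsp90b1, Sdf2l1, Manf and Pdia6 were called lower in each of the 15. All 13 calls remained in 8 of the 9 alternatives on all mice, and 10 at an adjusted p below 0.01, where 272 genes were lower and 241 higher over all genes. With no count filter 873 genes were lower. ERAD had 1 gene called (Derl1) with DESeq2 size factors, with DESeq2, with no filter, with at least 10 counts, without abundant genes and with the GC trend removed, and 2 (Edem1 and Derl1) with the length trend removed. Translocation had 1 with DESeq2 (Ssr1), 1 with no filter (Ssr4) and 2 (Sec61a1 and Ssr1) with the length trend removed, where the median of the 42 was -0.25. The same setting turned Sec62 to -0.012 and Ern1 to -0.027. Within library series 1 the translocation median was -0.11; within series 2 the chaperone median was -0.25 and the UPR median 0.083. The cause was not tested.

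Leaving out 1 mouse gave 6 to 14 members called, 5 to 10 chaperones, 1 to 5 of the disulfide arm, 0 to 1 translocation genes and 0 ERAD or UPR genes. Medians ran from -0.23 to -0.18 for the 42, -0.36 to -0.27 for the chaperones, -0.35 to -0.26 for the disulfide arm, -0.18 to -0.13 for translocation, -0.24 to -0.13 for ERAD and -0.11 to 0.042 for the UPR arm. Over all genes 308 to 594 were lower and 296 to 531 higher, the lowest of both without cKO 2; without Ctrl 3 they were 340 and 325, and without cKO 1 or cKO 3 the genes called higher were 390 and 345. Without cKO 2 the calls lost were Hspa5, Hyou1, Dnajb11, Creld2, Pdia3, Pdia4 and P4hb. Ern1 ran from -0.0059 to 0.11, Eif2ak3 from -0.17 to 0.077 and Xbp1 from -0.11 to 0.042, with signs turned without Ctrl 2 or cKO 2 (Ern1), Ctrl 3 (Eif2ak3) and cKO 1 (Xbp1). No paired analysis was possible because the labels give no numbers that pair mice across genotypes. Standard errors of log2 fold changes were 0.06 to 0.17 for members. Dnajc3 was gained with no filter, with the length trend removed, with library series as a covariate and without Ctrl 2.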

Other observations

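An ERSE or ERSE-II was also present in the promoter window of 38 genes outside the 42, of which 15 were tested. Of these 15, 0 were called lower and 1 higher by edgeR, beside 3.79% and 3.88% of all tested genes. The 1 called higher was Zfp57 (log2 fold change 0.88, adjusted p = 0.0463, edgeR, at a mean of 4.37 CPM). The median log2 fold change of the 15 was -0.09, beside 0.00023 over all tested genes. The genes next in order of p were Nucb1, a Golgi calcium-binding protein, at -0.22 (adjusted p = 0.054) and Rcl1 at -0.23 (adjusted p = 0.0799), followed by Lrif1 at 0.28 (adjusted p = 0.101) and by Krtcap2, an oligosaccharyltransferase subunit, at -0.28 (adjusted p = 0.152). These genes were named after their values were seen.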
